A study of Drosophila melanogaster with 4 samples.

Results

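Hindgut epithelium was sought among single cells of whole fly embryos by the RNA of 6 genes. A barcode (the tag of a droplet) was selected if it held at least 1500 UMIs (unique molecular identifiers, each standing for 1 captured RNA molecule), at most 25% of them from mitochondrial genes, and a UMI of at least 3 of otp, CG13082, CG17780, CG13616, Msr-110 and neo, which together had to make up at least 0.1% of its UMIs. In all, 981 of 109582 barcodes met this rule, 64 of them in early and 917 in late libraries. The rule used measured values, so the levels of these 6 genes are given as a description and were not tested. Below, "selected" stands for these barcodes and "other" for the rest of the 93931 barcodes that passed the UMI and mitochondrial limits.

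The hindgut is the ectodermal end of the gut tube. Its primordium is set aside at the posterior of the blastoderm, invaginates during gastrulation, and forms a single-layered epithelium that elongates by cell rearrangement and is wrapped by visceral muscle. The T-box factor brachyenteron (byn) and the FoxA factor fork head (fkh) are needed to specify and maintain it. It is divided along its length into small intestine, large intestine and rectum, and the large intestine has dorsal and ventral domains separated by rows of boundary cells. Being ectodermal, its cells carry pleated septate junctions and secrete a cuticle, whereas the neighbouring endodermal midgut has smooth septate junctions.

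All 4 libraries came from dissociated whole embryos of the wild-type strain OregonR, with no treatment or transgene. Early libraries covered stages 10-12 and late libraries stages 13-16, with 2 libraries for each window. Each library had its own embryo collection and dates, so stage and collection cannot be told apart. The paper gives different temperatures for collecting and ageing early and late embryos, so temperature cannot be told apart from stage either. By the paper's ordering of cells by expression, late replicate 1 was enriched for older embryos than late replicate 2. A library was treated as 1 replicate, since barcodes of a library share their source. The libraries held 160693359 and 71622535 UMIs in 20529 and 13758 barcodes (early replicates 1 and 2) and 186017099 and 394684653 UMIs in 39078 and 36217 barcodes (late replicates 1 and 2). Pairs of libraries shared between 63 and 285 barcode sequences within the limits, and no selected barcode was shared.

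Selected barcodes numbered 60, 4, 251 and 666 in early replicates 1 and 2 and late replicates 1 and 2, the order in which values of the 4 libraries are given throughout. Their share of the barcodes within the limits was 0.336% (95% exact Clopper-Pearson interval 0.256 to 0.432), 0.0386% (0.0105 to 0.0988), 0.835% (0.735 to 0.944) and 1.87% (1.73 to 2.01). The intervals cover counting error only. Both late libraries lay above both early libraries, and the 2 early libraries differed by more than their intervals. A permutation of 2 against 2 libraries cannot reach 0.05, so the share was not tested. The selected barcodes held 1298628, 90030, 1655722 and 21827501 UMIs, and the 4 barcodes of early replicate 2 are therefore the weakest support for any value below. Their median depth was 19956, 12196, 3918 and 8903 UMIs, above the medians of 3338, 2362, 2843 and 5214.5 in the other barcodes. Of the 981, 367 held more than 3 times the median depth of the other barcodes of their library.

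The 6 genes of the rule were seen together to different extents. A UMI of exactly 3 of them was found in 550 barcodes, of 4 in 237, of 5 in 96 and of all 6 in 98. The homeobox gene otp reached 1000, 433, 708 and 339 CPM (counts, here UMIs, per 1000000 UMIs of the summed barcodes) in the selected barcodes, against 20.0, 9.55, 17.3 and 15.1 in the others. CG13082 reached 1177, 44.4, 753 and 668 CPM in the selected barcodes and between 2.78 and 32.1 in the others. CG17780 and CG13616, which lie near each other on 3R, stood at 190, 11.1, 215 and 209 CPM and at 224, 33.3, 260 and 195 CPM, against at most 6.16 and 5.71 in the others. Msr-110 stood at 533, 11.1, 242 and 292 CPM, and at most at 23.2 in the others. Apart from neo, these genes were lowest in early replicate 2 or, for otp, in late replicate 2. The gene neo, which encodes a zona pellucida domain protein of the apical matrix, reached 323, 544, 306 and 1047 CPM, and 29.5, 15.5, 52.0 and 92 in the others. Close to the limits, the lowest summed share of a selected barcode was 0.1% in each late library, and the highest share of a barcode left out although it held 3 of the genes was 0.0992% in late replicate 1 and 0.0998% in late replicate 2. Barcodes with 3 of the genes but a smaller share numbered 55, 7, 595 and 1530, and byn had a UMI in 41.8%, 28.6%, 13.95% and 7.78% of them. Barcodes with 2 of the genes and a sufficient share numbered 104, 13, 320 and 571, and byn was seen in 34.6%, 30.8%, 4.06% and 4.20% of these.

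The label held clearly in early replicate 1 and only in part in the late libraries, and the 4 barcodes of early replicate 2 are too few to judge. byn, the defining gene of the tissue and not in the rule, had a UMI in 46 of 60, 2 of 4, 58 of 251 and 161 of 666 selected barcodes, which is 76.7%, 50%, 23.1% and 24.2%. In the other barcodes 1.84%, 0.975%, 1.26% and 1.80% had one, at the lower median depths above. The share with byn in late barcodes was thus many times the background but well under that of early replicate 1. Selected barcodes of early replicate 1 were also deeper, with a median of 19956 UMIs against 3918 and 8903 in the late libraries. The part of depth in this gap was not tested. The level of byn over summed barcodes was 169 CPM in early replicate 1 and 65.8 and 65.5 in the late libraries. otp was seen in 57, 4, 175 and 396 selected barcodes, and 3, 0, 74 and 260 held neither byn nor otp. In late replicate 2, 8 epidermal marker genes summed to 37406 CPM in the selected barcodes against 5853 in the others. The same sum was 6362 in selected barcodes with a byn UMI and 56463 in those without. In the other libraries the epidermal sum was 1203, 1511 and 7551 in selected barcodes and 1229, 488 and 3979 in the others. Markers of foregut and pharynx stood at 71, 167, 867 and 6705 CPM against 95, 63, 359 and 822. Those of trachea stood at 428, 1533, 1126 and 2563 CPM against 640, 427, 827 and 1273, above the others in 3 of 4 libraries. The late selection is therefore called selected barcodes and not hindgut cells, and results are given also for the 267 barcodes with a byn UMI, an alternative chosen after these shares had been seen.

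The selected barcodes were clustered by their expression into 8 groups, which are described by their values only. The number of groups was a setting and not a result. The clustering left out 307 genes, those of the rule, the lists, the 3R run described below and the mitochondrial genes. Group 5 (115 barcodes, 43 and 4 of them from the early libraries) held byn in 91.3% and otp in 99.1% of barcodes, with fkh at 848 and the Wnt ligand gene wg at 220 CPM, and the segment polarity factor gooseberry (gsb) was among its leading genes. Group 8 (54 barcodes, 43 from late replicate 2) held byn in 75.9% and otp in 90.7%, with fkh at 828, hedgehog (hh) at 4.7 and wg at 3.1 CPM. In it every barcode had at least 4 of the 6 rule genes. Group 3 (134 barcodes, 126 from late replicate 1) held otp in 90.3% and byn in 29.1%, with the homeobox gene dve at 213 and the posterior Hox gene Abd-B at 310 CPM. At the other end, group 4 (131 barcodes, 129 from late replicate 2) held byn in 4.58% and otp in 20.6%, and 77.9% of its barcodes had neither. Its epidermal sum was 83088 CPM, its median depth 50490 UMIs and its neo level 1682 CPM, while fkh was at 19.8. Group 2 (163 barcodes, 156 from late replicate 2) held byn in 8.59% and was led by Ppn, NimC4 and SPARC, genes of basement membrane and blood cells, with 2006 CPM of the plasmatocyte list. Groups 1, 6 and 7 held byn in 8.38%, 34.9% and 9.26% of barcodes, and group 6 was led by Osi15, Osi20 and Osi9 of the Osiris family and by Gasp, a chitin-binding protein gene. Most groups came largely from 1 library, so a group may stand for a library and not for a kind of cell.

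**Figure D1:**
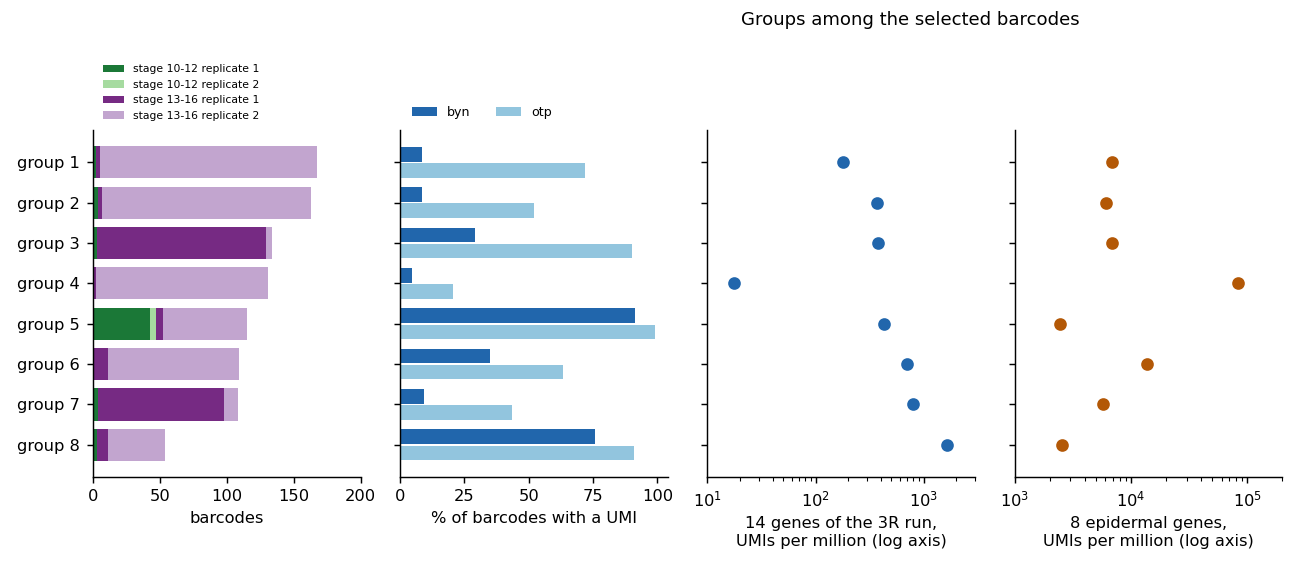
The 8 groups of selected barcodes, one per row: the number of barcodes by library (stacked bars), the percent of barcodes with a UMI of byn or otp (bars from 0), the summed CPM of 14 genes of the 3R run (log axis) and of 8 epidermal genes (log axis). Groups 5 and 8 held byn in 91.3% and 75.9% of barcodes, and group 4 combined 4.58% with an epidermal sum of 83088 CPM.

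The regulators that define the hindgut, byn and fkh, rose in the selected barcodes together with bowl and retn. Selected and other barcodes were summed within each library and compared across the 4 libraries with edgeR's quasi-likelihood test, at an adjusted p under 0.05. In these sums, more cells with a transcript and more transcript per cell cannot be told apart. Of 10114 genes tested, 592 (5.85%) were higher and 640 (6.33%) lower in the selected barcodes, and the median over all genes was -0.09 on the log2 scale. An unadjusted p under 0.05 was found for 2656 of the 10114 genes, and DESeq2 called 535 higher and 525 lower. Counts of these kinds below should be read against those totals.

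byn stood at 169, 133, 65.8 and 65.5 CPM in the selected barcodes and at 5.0, 2.37, 2.79 and 2.65 in the others. Its levels did not overlap, with a log2 difference of 4.98 ± 0.25 (SE, adjusted p = 3.19e-06). fkh stood at 756, 511, 411 and 347 CPM against 120, 117, 74.1 and 118, a difference of 2.22 ± 0.22 (adjusted p = 0.000154). The zinc-finger gene bowl, which acts in hindgut patterning downstream of drm and lin, stood at 270, 289, 211 and 245 against 115, 92.2, 94.9 and 152 (log2 1.18, adjusted p = 0.00267). The ARID factor retained (retn) stood at 189, 244, 216 and 65.5 against 64.5, 69.1, 67.0 and 43.3 (log2 1.41, adjusted p = 0.00162). In late replicate 2 its 2 levels lay closest together. The terminal gap genes tll and hkb, which act in the early posterior primordium, were lower in the selected barcodes, with log2 differences of -1.66 (adjusted p = 0.0198) and -2.14 (adjusted p = 0.0108) at levels of at most 3.62 CPM. Without late replicate 2 both missed the threshold (adjusted p = 0.141 and 0.0580). drm stood at 39.3, 22.2, 51.3 and 96.4 against 67.5, 55.6, 46.6 and 80.1, and its difference of -0.12 did not pass the test. Neither did those of lin (0.04), cad (-0.66), dve (-0.43) or the JAK/STAT ligand gene upd1 (0.84). Of the 11 fate regulators tested, 4 rose and 2 fell, with a median of 0.04.

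The study's own hindgut marker table lists ImpE1, retn, fkh and RhoGEF64C besides genes of the rule. That table was drawn from these same libraries and is no independent evidence. ImpE1, an ecdysone-inducible gene, stood at 383, 167, 367 and 1347 CPM against 15.8, 7.01, 82.3 and 140 (log2 3.62 ± 0.38, adjusted p = 0.000199). RhoGEF64C stood at 173, 167, 525 and 160 against 10.3, 3.95, 82.0 and 43.3 (log2 3.34 ± 0.40, adjusted p = 0.000486). Selected barcodes lay above the others in every library for both genes. ImpE1, retn, fkh and RhoGEF64C all rose, with a median log2 difference of 2.78, and all 4 still did so in barcodes with a byn UMI and without each library in turn.

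**Figure D2:**
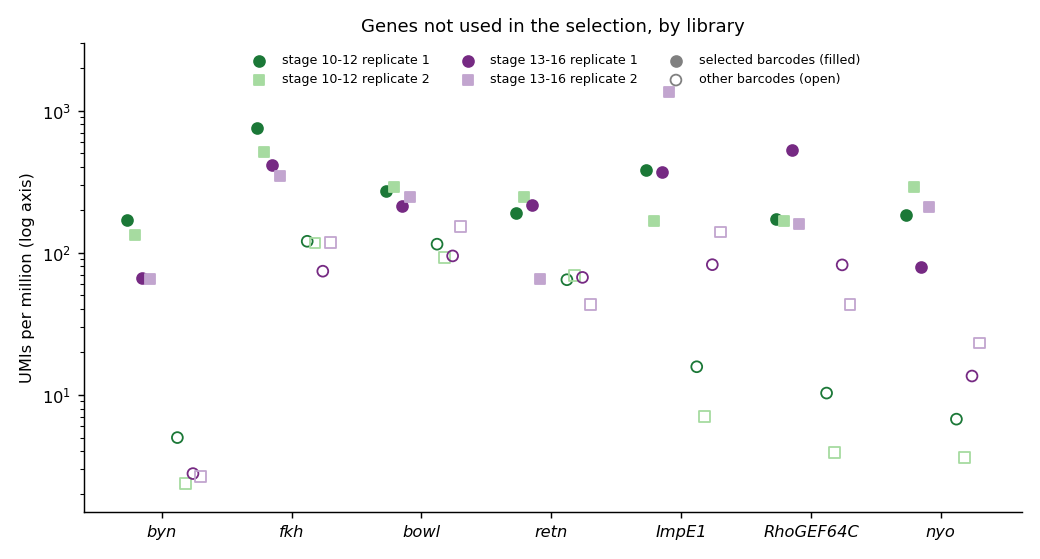
Levels of 7 genes outside the rule in selected (filled) and other (open) barcodes, in CPM on a log axis, with 1 point for each library. For byn the selected barcodes lay between 65.5 and 169 CPM and the others between 2.37 and 5.0. For each of the 7 genes the selected barcodes lay above the others in every library, but only genes that had passed the test are drawn. Of genes not drawn, en, inv and hh also lay above in every library. By contrast drm lay below the others in both early libraries, and dve in all but late replicate 1.

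A run of adjacent genes on chromosome arm 3R stood out among the rises. It spans 33.058 kb (positions 24360705 to 24393762 in the assembly BDGP6.54). It holds 16 genes in a row, from CG5762 to CG13616, all of them named only by their CG numbers. CG17780 and CG13616 belong to the rule and lie in it. Of the 14 others, 13 had enough UMIs to be tested, and all 13 rose in the selected barcodes, by between 5.71 and 6.54 on the log2 scale (adjusted p from 6.49e-05 to 0.00231). These 13 genes were among the 30 largest rises. CG33342, the remaining gene, had 2 UMIs. The run lies beside genes that were chosen for their level, so that its genes share their neighbours' selection, and the difference is given as a description of how far it extends. Of the 5 genes on each side of the run, 5 in all could be tested, with log2 differences from -1.44 to 0.10, and the lowest adjusted p among these was 0.0777.

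CG17781, with the highest of these folds, stood at 83.9, 0, 84.6 and 142 CPM in the selected barcodes against 0.103, 0.0607, 2.58 and 2.75 in the others (log2 6.54 ± 0.73, adjusted p = 0.000292). CG5768 stood at 40.0, 0, 98.4 and 89.3 against 0.135, 0.0152, 2.69 and 3.34 (log2 5.91). Summed over the 14 genes outside the rule, the run made up 327, 0, 457 and 486 CPM of the selected barcodes, from 425, 0, 756 and 10608 UMIs, against 0.809, 0.243, 12.8 and 12.8 in the others. Early replicate 2, with 4 barcodes, had none. In selected barcodes with a byn UMI the sum was 351, 0, 482 and 1235 CPM, so that in late replicate 2 it was higher there than in the selection as a whole. A UMI of the run was found in 28.3%, 0%, 55.2% and 63.4% of barcodes with byn and in 21.4%, 0%, 42.5% and 24.2% of those without. The barcodes with byn were deeper, with medians of 22222, 40368, 7064.5 and 30199 UMIs against 4378.5, 4647.5, 3536 and 4677. Across the 8 groups the sum ran from 17.4 CPM in group 4 to 1635 in group 8, whose leading genes included CG17781 and CG13616. Without each library in turn, every gene of the run that could be tested (between 11 and 13) still rose. Some of these genes overlap, CG33340 with both CG33339 and CG17784, so that their counts may not be separate.

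**Figure D3:**
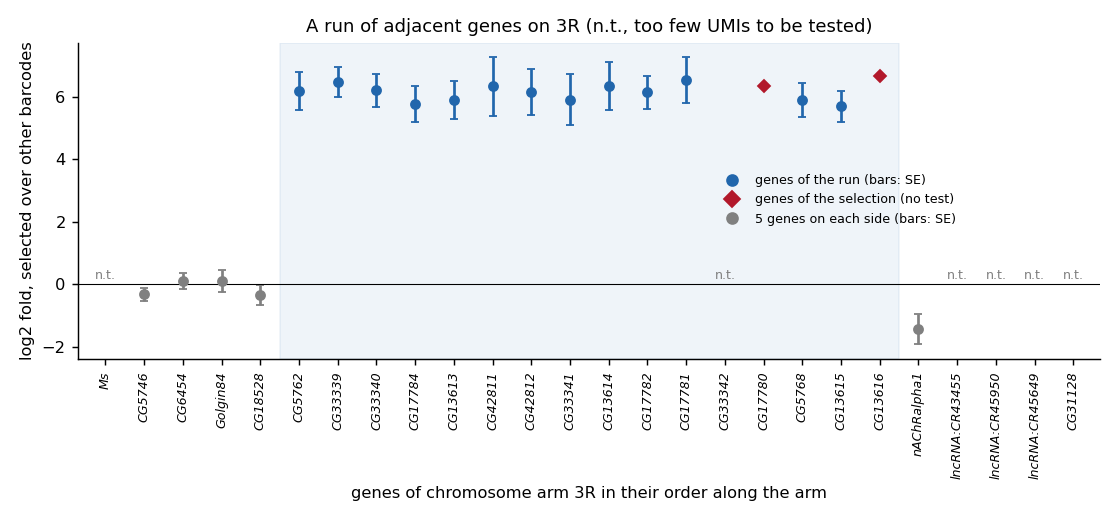
Log2 difference between selected and other barcodes (points, with SE as bars) for the 16 genes of the run on 3R and 5 genes on each side, in their order along the arm. The 13 tested genes outside the rule lay between 5.71 and 6.54, the flanking genes between -1.44 and 0.10, and the 2 genes of the rule are drawn without a test.

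Genes that pattern the hindgut into domains rose in part. Of 13 genes of the list 4 passed the test, with a median log2 difference of 0.75, and without late replicate 2 only 1 did, with a median of 0.34. crb, the apical determinant that marks boundary cells of the large intestine strongly, stood at 213, 444, 273 and 212 CPM against 114, 114, 120 and 128 (log2 1.18, adjusted p = 0.00411). It kept its call without each library. hh stood at 67.0, 155, 89.99 and 139 against 42.5, 42.5, 45.7 and 58.0 (log2 1.17, adjusted p = 0.00992), and without late replicate 2 it missed the threshold (adjusted p = 0.109). The Notch ligand gene Ser stood at 34.7, 0, 106 and 52.0 against 14.8, 11.4, 37.5 and 29.1 (log2 1.17, adjusted p = 0.0308). It kept its call only without early replicate 2, with adjusted p between 0.0651 and 0.179 without each other library. engrailed (en), which marks the dorsal large intestine, stood at 68.5, 222, 55.0 and 75.0 against 60.9, 40.0, 26.8 and 44.2 (log2 1.05, adjusted p = 0.0380). Its level in early replicate 1 was close to that of the others, and its call was lost without early replicate 2 (adjusted p = 0.103) or without late replicate 2 (adjusted p = 0.179). It was also lost with other barcodes matched in depth (adjusted p = 0.0757), with at least 4 of the 6 genes (adjusted p = 0.140) and without the low-count filter (adjusted p = 0.0631). Its neighbour and paralog invected (inv) had a difference of 0.98 (adjusted p = 0.0522), and 1.19 (adjusted p = 0.00557) in barcodes with a byn UMI. Differences for wg (0.75), dpp (0.95), N (0.50) and Abd-B (-0.83) did not pass the test. Over all genes, the comparison restricted to selected barcodes with a byn UMI called 723 of 9674 (7.47%) higher and 1384 (14.3%) lower. In it 7 of the 13 domain genes rose, wg and dpp among them (log2 0.97 and 0.93, adjusted p = 0.0433 and 0.0207), and Abd-B fell by 1.39 (adjusted p = 0.00833).

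Within selected barcodes that held byn, en and inv were mostly seen in the same barcodes. In early replicate 1, 66.7% of barcodes with an en UMI also held inv, against 5.26% of those without en. In late replicates 1 and 2 the shares were 60.0% against 23.7% and 76.9% against 27.7%. Barcodes with en were the deeper ones, with medians of 23437 against 16881, 18482 against 4937.5 and 46962 against 18637 UMIs. en and dve, whose proteins mark opposite sides of the large intestine, were seen together in 2, 11 and 22 barcodes of these 3 libraries. That is dve in 7.41%, 55.0% and 28.2% of barcodes with en, against 10.5%, 13.2% and 22.9% of those without. hh, Ser and crb were also seen more often with en than without it in all 3 libraries, and wg only in late replicate 1. The part of depth in these shares was not tested.

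Septate junction genes of the ectodermal type rose in the selected barcodes. Of 15 pleated junction genes 13 rose, with a median log2 difference of 1.00, and Nrg (0.40) and nrv2 (0.51) did not pass the test. Tsf2, a transferrin needed for junction assembly, stood at 268, 267, 163 and 340 CPM against 113, 68.6, 83.04 and 140 (log2 1.35, adjusted p = 0.00229). The claudins sinu and pck stood at 215, 77.8, 158 and 364 against 84.2, 42.0, 70.1 and 127 (log2 1.33) and at 481, 400, 343 and 684 against 207, 153, 185 and 283 (log2 1.20). cora, the cytoplasmic scaffold, stood at 211, 155, 318 and 456 against 78.8, 66.8, 205 and 226 (log2 1.09, adjusted p = 0.0088). Without late replicate 2, sinu and cora missed the threshold (adjusted p = 0.0676 and 0.0968), and cora did so without early replicate 1 (adjusted p = 0.0536). For each of these 4 genes the selected barcodes lay above the others in every library. The median was 0.80 without late replicate 2, where 2 of 15 passed the test, and 9 of 15 passed without early replicate 1. In barcodes with a byn UMI 13 of 15 rose, with a median of 0.95. Epidermis forms pleated junctions too, and its marker sum in late replicate 2 was 37406 CPM in all selected barcodes. In barcodes with byn the sum was 1213, 1598, 7092 and 6362 CPM, against 1229, 488, 3979 and 5853 in the others. It thus stayed well above the others in early replicate 2 and late replicate 1. The part of epidermal cells in the junction result was not tested. The 3 genes of smooth junctions had a median of -0.85 and none passed the test with edgeR or DESeq2 (2 of 3 had an unadjusted p under 0.05 with edgeR), while all 3 fell in barcodes with a byn UMI (median -1.99).

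Of 14 genes of apical polarity and adherens junctions, 3 rose (median 0.40). They were crb, its partner stardust (sdt, log2 0.98, adjusted p = 0.0112) and Moe, which links the apical membrane to actin. Moe stood at 511, 567, 350 and 852 CPM against 122, 109, 199 and 301 (log2 1.69, adjusted p = 0.00155). sdt missed the threshold without late replicate 2 (adjusted p = 0.116).

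Apical matrix genes rose almost as a whole list. Of 9 zona pellucida domain genes tested besides neo, 8 rose, with a median log2 difference of 2.51. The rule includes neo, a gene of the same family, so this list is not independent of the selection. Its rise is given as a description. nyo stood at 183, 289, 79.7 and 210 CPM against 6.74, 3.64, 13.6 and 23.2 (log2 4.10 ± 0.47, adjusted p = 0.000345). mey and m followed with log2 3.70 and 3.66, both at 0 in early replicate 2. dyl (2.86), tyn (2.51), pio (1.85) and qsm (1.43) also rose. dyl had no UMI in selected barcodes of either early library, and qsm missed the threshold without late replicate 2 (adjusted p = 0.189). dpy, the giant protein that ties epithelia to the overlying matrix, stood at 343, 367, 330 and 328 against 102, 57.3, 111 and 124 (log2 1.83), with little spread between libraries. In barcodes with a byn UMI 8 of 9 rose as well, with a median of 1.78, and without late replicate 2, 6 of 8 rose with a median of 1.93. Epidermal cells form such a matrix too, and the epidermal sums given above moved with this list in late replicate 2. Their part in the result was not tested.

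Chitin genes rose in part. Of 14 genes tested 4 rose, with a median of 1.05. knk and rtv, which organise chitin, had log2 differences of 1.96 and 1.09, exp 1.48 and the deacetylase gene Cda5 1.72. knk stood at 21.6, 0, 130 and 163 CPM against 6.24, 3.51, 40.9 and 34.3. The chitin synthase gene kkv stood at 0.770, 0, 44.1 and 116 against 4.83, 2.63, 15.3 and 29.3 and did not pass the test (log2 1.30). The median was 0.25 in barcodes with byn, where 4 of 14 rose, and 0.19 without late replicate 2, where 1 did. Without that library exp (adjusted p = 0.145), rtv (0.318 adjusted) and Cda5 (0.122 adjusted) missed the threshold.

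Among 20 transport genes 3 rose and 1 fell (median 0.31). The bestrophin chloride channel gene Best2 stood at 23.1, 0, 29.6 and 28.2 CPM against 3.11, 1.20, 11.1 and 9.19 (log2 2.02, adjusted p = 0.00371). The sodium-driven anion exchanger gene Ndae1 stood at 30.8, 11.1, 32.6 and 26.1 against 8.69, 4.75, 14.6 and 17.3 (log2 1.27, adjusted p = 0.0119), and its adjusted p was 0.0595 without late replicate 2 and 0.0552 without early replicate 1. The sodium-proton antiporter gene Nha1 had a log2 difference of 2.96 at levels of at most 5.39 CPM. bib, a neurogenic channel gene, stood at 30.03, 11.1, 24.2 and 13.2 against 131, 92.9, 25.5 and 41.9 and fell (log2 -1.34, adjusted p = 0.0346), a call that held only without late replicate 1 and was lost without each other library. In barcodes with a byn UMI 2 of 19 transport genes rose and 6 fell (median -0.57), where 7.47% and 14.3% of all genes were called. None of 15 vacuolar ATPase subunit genes passed the test with edgeR (median 0.40), 5 had an unadjusted p under 0.05 and DESeq2 called 1. Over all genes, 2656 of 10114 had such an unadjusted p.

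Of 7 Notch target genes 4 fell, with a median log2 difference of -1.55, and the other 3 did not pass the test. E(spl)m8-HLH, a repressor of neural fate, stood at 31.6, 11.1, 31.4 and 10.8 CPM against 117, 123, 95.1 and 45.9 (log2 -1.87, adjusted p = 0.00111). E(spl)mdelta-HLH (-1.73), E(spl)m5-HLH (-1.70) and E(spl)mgamma-HLH (-1.55) fell as well. The other barcodes hold the developing nervous system, and neuronal markers summed to 694, 407, 817 and 1350 CPM there against 172, 100, 509 and 300 in the selected barcodes. The part of neural cells in the fall was not tested. With other barcodes matched in depth 2 of the 7 fell, with a median of -1.24. None of 6 JAK/STAT genes passed the test with edgeR or DESeq2, and none had an unadjusted p under 0.05. Of 12 mitosis genes 4 fell (median -0.66) and of 14 replication genes 1 fell, Mcm3 (median -0.38). The call for Mcm3 held only without late replicate 1 among the 4 libraries left out, and without late replicate 2 or without early replicate 1 no mitosis gene passed (8 and 9 had an unadjusted p under 0.05). Over all genes, 1578 of 9628 and 2433 of 10307 had an unadjusted p under 0.05 in these fits.

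Markers of blood cells and muscle were mostly lower. Plasmatocyte markers summed to 74, 22, 236 and 158 CPM against 531, 280, 539 and 641, and 7 of 7 tested fell. With other barcodes matched in depth, 1 of 7 passed. Somatic muscle markers fell in 7 of 8 cases and stood at 263, 56, 851 and 902 against 1286, 945, 2080 and 2944. Of 8 neuronal genes 4 fell. Visceral and hindgut muscle markers, with the adhesion gene Fas3 in their list, stood at 1642, 433, 4872 and 2871 against 1134, 758, 2162 and 1654, and 3 of the 8 genes fell. By contrast 5 of 8 foregut and pharynx genes and 3 of 8 epidermal genes rose. None of 6 tracheal genes passed the test with edgeR or DESeq2 (median -0.17), and 2 had an unadjusted p under 0.05 with edgeR. Without late replicate 2, no foregut gene of 7 passed (2 had an unadjusted p under 0.05), and 2 of 8 epidermal genes did.

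Outside the run and the lists, the largest rises included Cyp4aa1, a cytochrome P450 gene, at 131, 122, 66.4 and 58.4 CPM against 1.12, 0.349, 3.34 and 1.93 (log2 5.84). It was present in all 4 libraries, and in both stage windows its selected and other levels did not overlap. CG32564 rose by 5.13 (adjusted p = 5.84e-06) and CG6785 by 4.98. SdhAL, a paralog of the succinate dehydrogenase flavoprotein, and TwdlX, a Tweedle cuticle protein gene, were also among the 30. The antisense transcript asRNA:CR46091 was named by the same rule. How its reads were separated from those of a gene on the opposite strand was not checked here. The 10 largest falls included PPO2 and PPO1, the prophenoloxidases of crystal cells. PPO2, the largest, stood at 4.62, 0, 15.1 and 9.03 against 63.0, 26.2, 92.8 and 131 (log2 -3.27) and PPO1 had a log2 difference of -2.81. NimB3 (-2.85), Npc2g (-2.84), Akr1B (-2.68), HLH54F (-2.58), Gyg (-2.41), Act57B (-2.40) and Argk1 (-2.39) were also among them. HLH54F missed the threshold with other barcodes matched in depth (adjusted p = 0.0774) and Argk1 with DESeq2 (adjusted p = 0.0757). HLH54F specifies the caudal visceral mesoderm, and Act57B and Argk1 are muscle genes.

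Set against the midgut, the other long segment of the gut, the selected barcodes had more transcripts of pleated and fewer of smooth septate junctions. Midgut barcodes needed a UMI of at least 3 of 8 endodermal markers, together at least 0.5% of their UMIs, a stricter share than the 0.1% of the hindgut rule. They numbered 15, 41 and 144 in early replicate 1 and the late libraries. Early replicate 2 had none and is left out of this comparison. Of 6277 genes 1270 (20.2%) were higher and 1416 (22.6%) lower in the selected barcodes, with a median log2 difference of 0.03. All 15 pleated junction genes rose, by 1.64 to 4.05 (median 3.30). sinu stood at 215, 158 and 364 CPM against 9.07, 10.5 and 19.4 (log2 4.05), and Tsf2 at 268, 163 and 340 against 15.1, 13.1 and 18.2 (log2 3.88). The 3 smooth junction genes all fell. Ssk stood at 11.6, 44.7 and 22.0 against 566, 484 and 578 (log2 -4.70, adjusted p = 0.000367), mesh had a log2 difference of -4.62 and Tsp2A one of -4.45. Both lists gave the same counts without each of the 3 libraries. Markers of other ectodermal tissues were higher than in midgut barcodes as well, with 7 of 8 epidermal genes (median 3.97), 7 of 7 foregut genes (4.64) and 4 of 5 tracheal genes (2.48). Their part in the junction result was not tested.

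The proton pump went the same way as the smooth junctions. Of 15 vacuolar ATPase subunit genes 11 fell and 1 rose, with a median of -1.02. Vha68-2 stood at 38.5, 47.1 and 155 CPM against 169, 199 and 391 (log2 -2.01) and Vha13 at 286, 246 and 318 against 699, 677 and 1014 (log2 -1.68). Vha100-1 was the gene that rose (log2 0.99, adjusted p = 0.0378), and it missed the threshold without early replicate 1 (adjusted p = 0.0701) or without late replicate 1 (adjusted p = 0.164).

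Among regulators, fkh was higher than in midgut barcodes, at 756, 411 and 347 against 93.8, 35.5 and 105 CPM (log2 2.49). retn stood at 189, 216 and 65.5 against 9.07, 11.8 and 5.64 (log2 3.76). cad, the caudal homeobox gene, was lower, at 3.85, 8.46 and 11.2 against 27.2, 19.7 and 49.1 (log2 -2.13, adjusted p = 0.00323). All 13 domain genes and all 7 zona pellucida genes tested were higher, the latter with a median of 5.10. Here too the zona pellucida list is not independent of the selection, since neo is in the rule. dpy stood at 343, 330 and 328 against 0, 6.58 and 16.4. Of 10 mitosis genes 8 were higher. The rises named by size were Cyp4aa1, CG34443 and the run genes CG17782, CG17784 and CG13613, all of which were at 0 in the midgut barcodes of every library. The falls named by size were CG5011, CG43349, Jheh3, CG3987 and CG13321, of which CG5011 stood at 0, 4.83 and 2.15 against 130, 479 and 159.

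**Figure D4:**
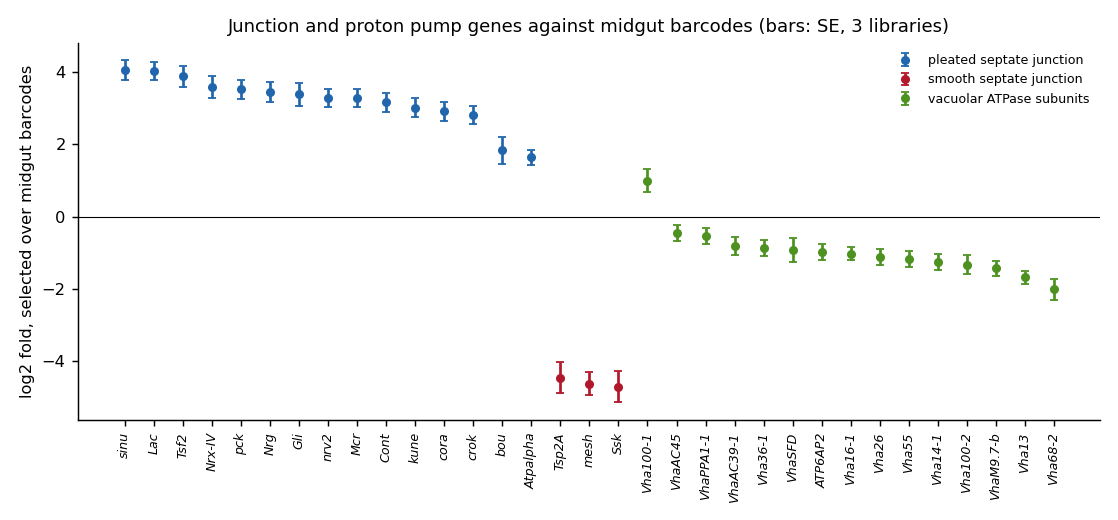
Log2 difference between selected and midgut barcodes (points, with SE as bars, 3 libraries) for genes of pleated junctions, smooth junctions and the vacuolar ATPase. All 15 pleated junction genes lay above 0, between 1.64 and 4.05, the 3 smooth junction genes lay near -4.6, and the pump genes had a median of -1.02.

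The same comparison was made with barcodes chosen by Malpighian tubule markers, 168, 414 and 1257 in early replicate 1 and the late libraries. Early replicate 2, with 37 such barcodes but only 4 selected ones, was left out here too. No gene among 8030 passed the adjusted threshold with edgeR. At an unadjusted p under 0.05 there were 1819, and DESeq2 called 355 higher and 410 lower. Without late replicate 1, edgeR called 346 higher and 237 lower, so this library decides the result and no gene is described from it.

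Between the stage windows most changes in the selected barcodes were rises, with chitin and epidermal marker genes among them. Of 6585 genes, 94 (1.43%) were higher and 4 (0.0607%) lower at stages 13-16, all with adjusted p between 0.0484 and 0.0499, and 1391 had an unadjusted p under 0.05. Without early replicate 1, without early replicate 2, or with mixed barcodes left out, no gene passed in either direction, while 1154 and 1182 were higher without late replicates 1 and 2. A window left with 1 library is assumed to vary like the other window. The calls thus need both early libraries and lie at the edge of the threshold. In barcodes with a byn UMI 38 of 5988 genes rose (0.635%) and 1 fell (0.0167%), of which 29 and 1 were among the calls above.

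The Osiris gene Osi6 stood at 0.770 and 0 CPM at stages 10-12 and at 333 and 9841 at stages 13-16 (log2 13.03 ± 2.15). The early values rest on 1 and 0 UMIs, so this fold and its SE depend on the small prior count added in the fit. In barcodes with byn it stood at 0.834, 0, 260 and 1866, and in the other barcodes at 5.35, 0.835, 113 and 757. Osi7 moved likewise, from 0 and 11.1 to 277 and 5027. CG6118, one of the foregut and pharynx markers, was at 0 in both early libraries and at 211 and 1031 in the late ones, which is at least 288-fold higher when 3 UMIs over both early libraries (2.16 CPM) are taken as the floor. On the same floor Exn was at least 33.5-fold higher, the laccase gene straw (stw) at least 25.8-fold and the Rel factor gene dorsal (dl) at least 20.1-fold. dl stood at 35.6 and 51.3 CPM in the late libraries. ect rose from 0.770 and 0 to 136 and 2512. CG10348, CanB2, Liprin-gamma, CG13252, CG34232, Cipc, CG15365 and CG4374 had no UMI in the early selected barcodes and rose by at least 8.80-fold to at least 27.3-fold. All these bounds are for the selection as a whole and were not taken for barcodes with byn. CG10348 stood at 70.7 and 47.5 CPM in the late selected barcodes, but at 24.4 and 1.45 in those with byn. Among the genes just listed, CG34232 alone was higher with byn in both late libraries, at 28.7 and 47.6 against 19.9 and 28.1. CG13252 was so in late replicate 1 only.

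Of 13 chitin genes 3 rose between the windows. kkv stood at 0.770, 0, 44.1 and 116 CPM (log2 7.06). The deacetylase genes verm and serp stood at 15.4, 0, 232 and 989 (log2 5.88) and at 4.62, 0, 165 and 815 (log2 7.17). In barcodes with byn, serp stood at 4.17, 0, 133 and 160. The list's median was 5.88, and 3.48 in barcodes with byn, where 3 of 12 rose. Of 8 epidermal genes 4 rose, and of 8 foregut genes 2. The median over all genes was 0.13.

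Of the falls, PH4alphaNE1, a prolyl hydroxylase gene, stood at 33.1, 33.3, 0.604 and 0.641 CPM (log2 -5.38). CG13217 went from 67.8 and 77.8 to 6.04 and 5.45 (log2 -3.36) and CG10035 from 55.4 and 44.4 to 4.23 and 4.95 (log2 -3.18). The kinetochore gene Nnf1a went from 156 and 233 to 30.2 and 24.1 (log2 -2.51). The 2 windows did not overlap for any of these 4 genes, but they were named because their falls were called, so this adds no support. The share of all genes without such overlap in the selected barcodes was not counted.

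None of the 9 fate regulators tested showed a stage change that passed the test with edgeR or DESeq2, and 3 had an unadjusted p under 0.05 with edgeR. byn had a log2 difference of -0.94 (adjusted p = 0.257), and fkh one of -0.46 (adjusted p = 0.586). No gene of the 3R run (13 tested), of the pleated junctions (15) or of the zona pellucida list (8) passed the test between stages with edgeR, and 4 in each had an unadjusted p under 0.05. DESeq2 called 2 zona pellucida genes and none of the others. The list medians were 1.04, 0.46 and 1.72.

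**Figure D5:**
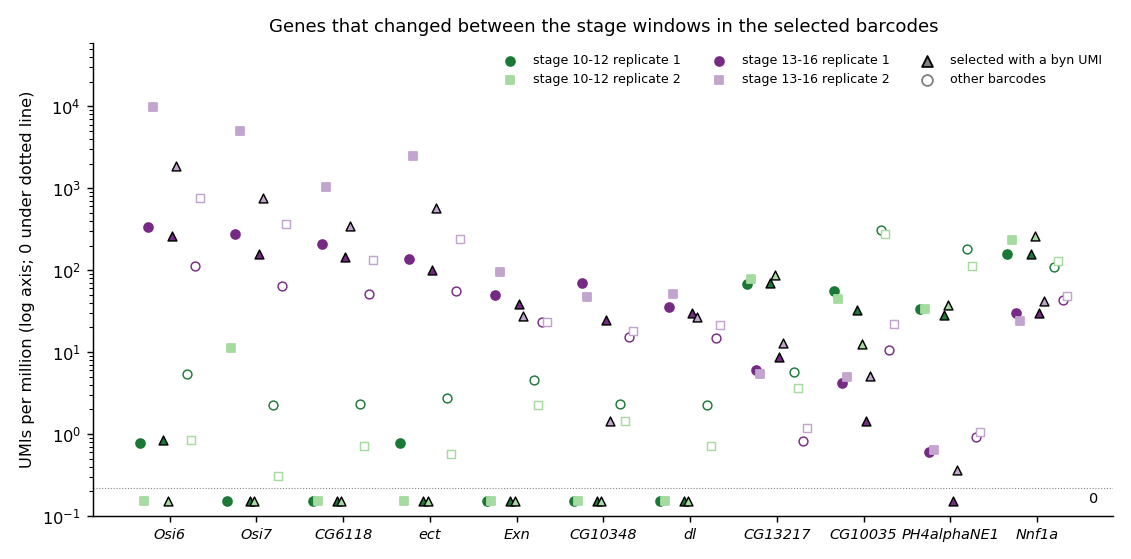
CPM (log axis, 0 drawn under the dotted line) of genes that changed between the stage windows, with 1 point for each library, for selected barcodes (filled), selected barcodes with a byn UMI (triangles) and other barcodes (open). Osi6 went from at most 0.770 to 333 and 9841 in the selected barcodes, and Nnf1a from 156 and 233 to 30.2 and 24.1.

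Most stage changes of the selected barcodes were seen in the rest of the embryo too. Of the 94 genes that rose, 90 were higher in both late than in both early libraries in the other barcodes as well, as were 32.1% of all 6585 genes tested. All 4 genes that fell were lower there in both late libraries, as were 29.6% of all genes tested. A test of the difference between the 2 stage changes found 219 of 11161 genes (1.96%) with a more upward change in the selected barcodes and 25 (0.224%) with a more downward one, and 55 of the 94 rises were among the 219. The median of this difference over all genes was 0.42, against which the values below should be read. Abd-B was one of these. It stood at 37.0, 33.3, 219 and 141 CPM in the selected barcodes and at 181, 165, 176 and 182 in the others, a difference in stage change of 2.61 on the log2 scale (adjusted p = 2.93e-05). The windows did not overlap in the selected barcodes, where the stage test alone gave adjusted p = 0.0505, and overlapped in the others. In barcodes with byn it stood at 25.9, 37.2, 192 and 69.0. The windows fall into different groups of selected barcodes, since 43 of 60 and 4 of 4 early barcodes lay in group 5. Abd-B stood at 58.2 CPM in group 5 and 20.1 in group 8, the groups richest in byn, and at 182, 111, 310, 187, 155 and 142 CPM in groups 1, 2, 3, 4, 6 and 7.

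dve moved in the same way, from 14.6 and 0 to 115 and 24.3 against 46.7, 30.7, 59.4 and 42.7 in the others (difference 2.20, adjusted p = 0.0119). It missed the threshold without early replicate 1 (adjusted p = 0.189) or late replicate 1 (adjusted p = 0.0931). nyo went the other way, from 183 and 289 to 79.7 and 210, while it rose from 6.74 and 3.64 to 13.6 and 23.2 in the others (difference -2.12, adjusted p = 0.000412). Without early replicate 2 its adjusted p was 0.110. ImpE1 (-1.48, adjusted p = 0.0484) and RhoGEF64C (-1.90, adjusted p = 0.00260) also differed downward, and each lost its call without 3 of the 4 libraries. RhoGEF64C kept it without late replicate 1 and ImpE1 without late replicate 2.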

How the data were processed

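Droplet libraries of whole embryos were read out as UMI counts. The authors deposited raw counts of 17875 genes for every barcode called by Cell Ranger 6.1.2, without normalization. These were used as deposited. Symbols were matched for 17800 genes, and positions come from the annotation of BDGP6.54, which is newer than the one used for counting. No sequences were used here.

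Selected barcodes were found by the rule given in the results. UMIs were summed per library over selected, other, midgut and Malpighian barcodes, and the sums tested with edgeR 4.0.16 (quasi-likelihood, TMM, filterByExpr, library as a block where both sums came from the same libraries, Benjamini-Hochberg over all genes) in R 4.3.3. DESeq2 1.42.0 was an alternative. Levels are CPM of the summed UMIs. The SE given with a log2 difference is its absolute value divided by the square root of the test's F statistic. With few or no UMIs on one side, the difference and its SE depend on the prior count. No doublet caller was run. As an alternative, 0, 0, 15 and 38 selected barcodes with a high share of neuronal, muscle, midgut or plasmatocyte markers (above the 95th percentile of the others) were left out. Methods were tested on simulated data. Clustering used Python 3.11.15.

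Genes were named if they were in the rule, in a fixed list with at least 20 UMIs in the selected barcodes, or among the largest called changes with at least 50 UMIs (15 in each direction between stages, 30 rises and 10 falls against other barcodes, 5 in each direction elsewhere). The genes flanking the run, and those leading the groups, were named after their values were seen. The members and lists were chosen with earlier results of these data known.

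Replicate numbers did not pair libraries across windows (correlation of deviations -0.0553 over 6585 genes). Libraries of a window came from separate collections, and p-values of the stage test measure the spread between them. With library as a block, p-values measure how the difference between sums of the same library varies from library to library. With so few libraries, edgeR estimates this variation partly from other genes. Alternatives concerned the limits of the rule, depth, normalization, low-count filter, block, comparator and each library in turn.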

Additional observations from a re-analysis of the deposited data

Results flagged for a closer look

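In 10 genes named by size, the stage change of the selected barcodes differed from that of the other barcodes by the test of the difference itself (edgeR, log2 scale, adjusted p from 1.91e-13 to 0.0238). CG10953 (17.15), the cuticle genes slf (15.57) and Cpr11A (14.07), l(2)34Fc (13.93) and CG11437 (13.86) differed upward. All 5 had no UMI in the early selected barcodes, so their fitted differences depend on the prior count and are no bounds. slf stood at 0, 0, 68.2 and 655 CPM in the selected barcodes and at 15.7, 1.44, 45.1 and 88.2 in the others. CG10953 stood at 0, 0, 0 and 3.76 against 25.8, 0, 0.169 and 0.496, so its value rests on single libraries. Without early replicate 1 all 5 missed the threshold, and CG10953 and l(2)34Fc did so without late replicate 2. With DESeq2 slf (5.32), Cpr11A (3.30) and CG11437 (4.26) missed it (adjusted p = 0.852, 0.846 and 0.371), in barcodes with a byn UMI Cpr11A and l(2)34Fc did (0.311 and 0.618), and l(2)34Fc did with at least 4 of the 6 genes (0.257).

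CG42811 (-7.48), Slc45-1 (-4.66), CG13614 (-4.13), CG17781 (-3.54) and CG13613 (-2.93) differed downward. Slc45-1, of a sugar transporter family, stood at 76.2, 367, 24.2 and 10.3 CPM in the selected barcodes against 5.73, 2.12, 16.5 and 9.56 in the others. The value of 367 CPM comes from 33 UMIs among 4 barcodes, all of them in the 2 barcodes with a byn UMI (409 CPM there). With at least 4 of the 6 genes, a rule that no barcode of that library meets, the difference was -1.06. The other 4 belong to the run on 3R, and each was at 0 in the 4 barcodes of early replicate 2. CG17781 stood at 83.9 CPM in early replicate 1 and at 84.6 and 142 in the late libraries, while it went from 0.103 and 0.0607 to 2.58 and 2.75 in the others. Without early replicate 1 the differences of these 4 genes turned upward and did not pass the test. CG13613 and CG17781 also missed it with DESeq2 (adjusted p = 0.132 and 0.2), and CG13613 in barcodes with byn (0.12).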

How the results depend on the processing

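Between stages, 94 genes rose and 4 fell. These counts became 399 and 17 with DESeq2, 826 and 59 with no filter beyond 1 UMI, 774 and 91 with the replicate number as a block, 38 and 1 in barcodes with a byn UMI, and 0 and 0 with at least 4 of the 6 genes or with mixed barcodes left out. Leaving out each library gave 0 to 1182 rises and 0 to 277 falls. Replicate numbers pair no libraries, so the block is no better measure of the effect. Against other barcodes, 592 rises and 640 falls became 48 and 2 without the replicate block, that is without the library term, 363 and 244 with others matched in depth, and 247 to 689 and 196 to 1047 without each library, and the falls became 1384 in barcodes with a byn UMI. For the difference between stage changes, 219 and 25 became 47 and 11 with DESeq2, 76 and 39 with at least 4 genes and 73 to 453 and 8 to 80 without each library. The upward count was 99 in barcodes with byn and the downward count 49 with RLE factors. Malpighian comparisons gave 0 to 346 and 0 to 237 without each library, and 355 and 410 with DESeq2. Midgut falls ranged from 732 to 1381 without each library. The causes were not tested.

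The share of selected barcodes followed the rule's limits. A limit of at least 3000 UMIs gave 0.566%, 0.109% and 1.15% in early replicates 1 and 2 and late replicate 1, and at least 1000 UMIs gave 0.727% in the last. With at least 2 of the genes it was 0.917%, 0.164%, 1.90% and 3.47% in the 4 libraries, and with at least 4 it was 0.168%, 0%, 0.419% and 0.772%. A summed share of 0.05% gave 0.476%, 1.59% and 3.47% (early replicate 1 and the late libraries), and one of 0.2% gave 0.151%, 0%, 0.349% and 0.612%. With every barcode thinned to 1500 UMIs the shares were 0.0951%, 0.00965%, 0.376% and 0.556%, and late libraries still lay above early ones.

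Directions that turned belonged mostly to genes that had not passed the test. Against other barcodes, drm became 0.33 with others that had no UMI of the 6 genes and ranged from -0.60 to 0.15 without each library, above 0 without early replicates 1 (0.15) and 2 (0.018). dve became 0.024 without the replicate block and ranged from -1.11 to 0.023, above 0 without early replicate 1. lin became -0.055 with DESeq2, -0.0090 in barcodes with byn, -0.021 without the filter and -0.049 with others matched in depth, and ranged from -0.45 (without late replicate 2) to 0.21. upd1 became -0.53 with at least 4 genes and ranged from -0.036 (without early replicate 2) to 1.67. Between stages, byn and fkh became 0.042 and 0.16 in barcodes with a byn UMI, a choice that fixes the presence of byn and so says nothing of its stage change. The called differences between stage changes turned without early replicate 1, where no early selected barcode held a UMI of these genes. Without each library CG13613 ranged from -3.20 to 9.29, CG13614 from -4.43 to 5.39, CG17781 from -4.03 to 11.69 and CG42811 from -8.23 to 5.35.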
